A study of Mus musculus with 2 samples.

Results

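MicroRNA genes known from the eye, from pigment cells or from the choroid plexus are described here: Mir184, Mir204, Mir211 and the Htr2c-hosted Mir1298, Mir448, Mir1264 and Mir1912. These are 7 of the 1973 microRNA genes in the count tables. They were named as a list, and the values that chose them were their counts in the 2 libraries of the study, compared between the 2 pools. Differences between the pools are therefore given as descriptions, with no test. Small RNA of under 30 bases was sequenced from the facial prominences of healthy B6NCrl mouse embryos at day 11.5, with both sexes pooled and no treatment or genotype named. Replicate 1 was a pool from 109 embryos and replicate 2 a pool from 88, with 1 library each. The sense strand of the microRNA genes received 1941745 counts in replicate 1 and 2319881 in replicate 2, and levels are given as CPM, counts scaled to a total of 1000000 for each library.

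MicroRNAs are RNAs of about the length of a short primer that are cut from a hairpin and guide the silencing complex to messenger RNAs, mainly through the seed at their 5′ end. miR-184 is known from the lens and the corneal epithelium. miR-204 is known from the retinal pigment epithelium, lens, ciliary body and choroid plexus, and miR-211, its close relative, from melanocytes and the pigment epithelium. Their hosts Trpm3 and Trpm1 encode cation channels, and Trpm1 is also known from retinal bipolar cells. Htr2c encodes the serotonin 2C receptor, which is abundant in the choroid plexus, the epithelium that makes cerebrospinal fluid, and its introns hold a series of microRNA hairpins.

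The mature sequences show which of the genes could act on the same targets, and 1 is printed for each gene with the seed (bases 2 to 8) in capitals. They were taken from RefSeq on GRCm38.p6, where all 7 genes matched, with 12 mature sequences in all.
miR-204-5p: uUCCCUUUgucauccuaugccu
miR-211-5p: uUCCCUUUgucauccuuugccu
miR-184-3p: uGGACGGAgaacugauaagggu
miR-1298-5p: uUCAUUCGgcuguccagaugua
miR-448-3p: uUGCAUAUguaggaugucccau
miR-1264-3p: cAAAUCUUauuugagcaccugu
miR-1912-3p: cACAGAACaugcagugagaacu
Only miR-204-5p and miR-211-5p share a seed among these. Across both arms the 12 sequences held 11 different seeds.

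The 5p arms of Mir204 and Mir211 are identical at 21 of 22 bases. The 1 difference is A17U, counted from the 5′ end of miR-204-5p, and lies outside the seed. The hairpins differ more, as their sequences show, with the mature arms in capitals.
Mir204 hairpin: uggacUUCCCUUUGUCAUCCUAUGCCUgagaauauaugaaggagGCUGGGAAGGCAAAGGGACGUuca
Mir211 hairpin: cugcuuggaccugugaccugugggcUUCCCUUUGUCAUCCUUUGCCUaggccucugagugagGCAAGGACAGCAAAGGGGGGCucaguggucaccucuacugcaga
The longest run of bases common to both hairpins is 17, and no other of the 1893 annotated microRNA hairpins compared shared a longer run with either. For the other 5 genes the longest run shared with any of these hairpins, on either strand, was between 11 bases (Mir184 and Mir1264) and 13 bases (Mir448). Reads placed at several positions were kept apart in the deposited tables. Reads of Mir204 and Mir211 that end before the differing base could be among them, which was not tested. Of the RefSeq mature sequences that share the UCCCUUU seed, the remaining one, miR-7670-3p, had its gene Mir7670 at 0 counts in both libraries, which allows levels of up to 1.55 and 1.29 CPM in replicates 1 and 2 (3 counts).

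All 7 genes are single loci on the mm10 assembly. Mir184 (chromosome 9, 89802260 to 89802328, minus strand) lies in no annotated gene, and its nearest neighbour, 1700017I07Rik, is 0.5 kb away. Mir204 (chromosome 19, 22750605 to 22750672, plus strand) lies 611.6 kb into the 856.4 kb Trpm3 gene, in intron 6 of the annotated transcript with the most exons (27). Mir211 (chromosome 7, 64205806 to 64205911, plus strand) lies 52.0 kb into the 115.9 kb Trpm1 gene and also in intron 6 of the transcript with the most exons (27). In both hosts the microRNA is on the strand of the host and overlaps no exon of any annotated transcript.

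The Htr2c genes are spread over a host of 234.8 kb on the X chromosome, all on its strand and outside its annotated exons. Mir1912 (147009441 to 147009527) and Mir1264 (147010601 to 147010686) are neighbours 1.07 kb apart. Mir1298 (147064905 to 147065002) follows after 54.22 kb, and these 3 share intron 3 of the transcript with the most exons (7). Mir448 (147158210 to 147158321) lies a further 93.21 kb downstream, in intron 5. Another hairpin of the gene, Mir764 (147002259 to 147002366), lies 7.07 kb upstream of Mir1912 and is not among the 7.

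The 7 genes together took 0.219% of the sense counts in replicate 1 and 0.105% in replicate 2, or 0.162% ± 0.081 (SD, n = 2). Most of this came from Mir204 and Mir211, which held 71.2% of the 7-gene counts in replicate 1 and 83.7% in replicate 2. Within each library the mature sequences compared are of nearly equal length, so counts were not divided by length. Unequal ligation or placement of the sequences within a library was not tested. Intervals below are exact 95% binomial intervals on the counts. They cover counting error only, not the spread between pools or between library preparations. The labels name no molecular identifiers, so reads copied in amplification could make these intervals too narrow, which was not tested.

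Mir204 was the most abundant of the 7, with 1601 counts in replicate 1 and 1120 in replicate 2, or 825 and 483 CPM. It ranked 120th and 138th of all loci in the respective libraries. Mir211 followed with 1433 and 919 counts, or 738 and 396 CPM. Mir204 therefore exceeded Mir211 by a log2 ratio of 0.16 in replicate 1 (95% interval 0.06 to 0.26) and 0.29 in replicate 2 (0.16 to 0.41). This gap had the same direction in both libraries but was smaller than the difference between the pools for either gene.

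Mir184 had 995 counts in replicate 1 and 249 in replicate 2, or 512 and 107 CPM, and so ranked 135th and 221st. It lay below Mir211 by a log2 ratio of 0.53 in replicate 1 and 1.88 in replicate 2. Its place under Mir211 was the same in both libraries, but the distance was not.

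Mir1298, the most abundant of the Htr2c genes, had 186 and 116 counts, or 95.8 and 50.0 CPM. The others were far lower. Mir1264 had 27 and 13 counts, or 13.9 and 5.60 CPM. Mir448 had 19 and 18 counts, or 9.79 and 7.76 CPM. Their order turned between the libraries, and their counting intervals overlapped in each. Mir1912 had 1 count in each library, and Mir764 had 1 and 2, so neither was above the limit of 3 counts.

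Of neighbours in this order of level, Mir1298 and Mir1264 differed in both libraries by more than the pools differed for either gene. Mir1298 exceeded Mir1264 by a log2 ratio of 2.97 ± 0.26 (SD, n = 2). Mir448 exceeded Mir1912 by 4.21 ± 0.06, a value that rests on 1 count of Mir1912 in each library. Neither that SD nor the pool difference of Mir1912 can be judged on such counts, so this pair is left undecided. The gaps from Mir204 to Mir211, Mir211 to Mir184, Mir184 to Mir1298 and Mir1264 to Mir448 did not exceed the pool differences in this way.

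**Figure D1:**
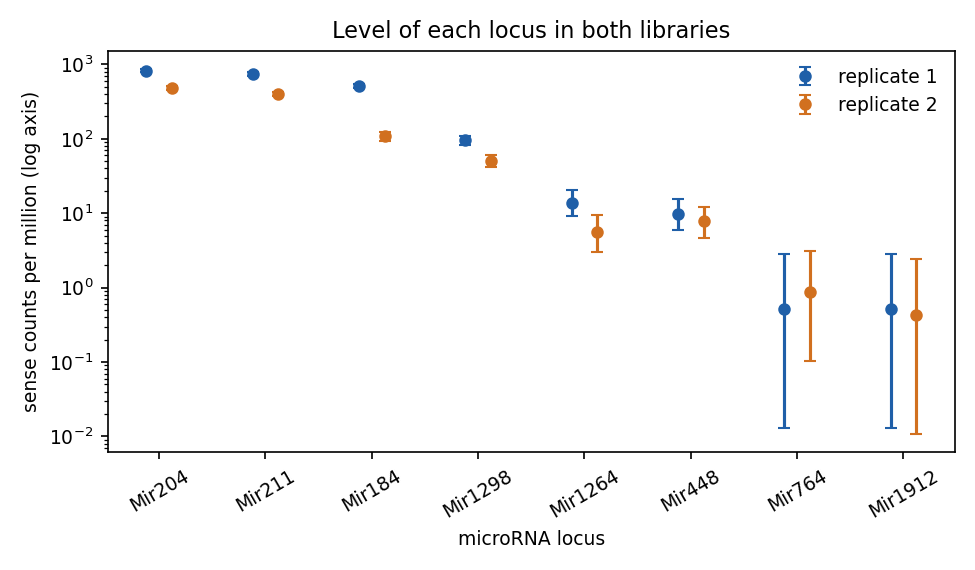
Level of each locus in CPM (log axis) in replicate 1 and replicate 2, with exact 95% binomial intervals as bars; Mir764 is shown beside the 7 genes as the other hairpin of Htr2c. From Mir204 at 825 and 483 CPM to Mir1912 at 1 count in each library, the 6 genes above Mir1912 are lower in replicate 2.

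Within Htr2c the counts were concentrated in Mir1298 in both libraries. It held 79.8% of the counts of the 4 Htr2c genes in replicate 1 (95% interval 74.1 to 84.8) and 78.4% in replicate 2 (70.9 to 84.7). The genes nearest to the start of the host were the lowest, with 1 or 2 counts at Mir764 and Mir1912, while Mir1264, 1.07 kb from Mir1912, had 27 and 13. From there the level was higher at Mir1298, and at Mir448, the farthest from the start, it was lower again. The 4 genes together stood at 120 against 63.8 CPM in the respective libraries.

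**Figure D2:**
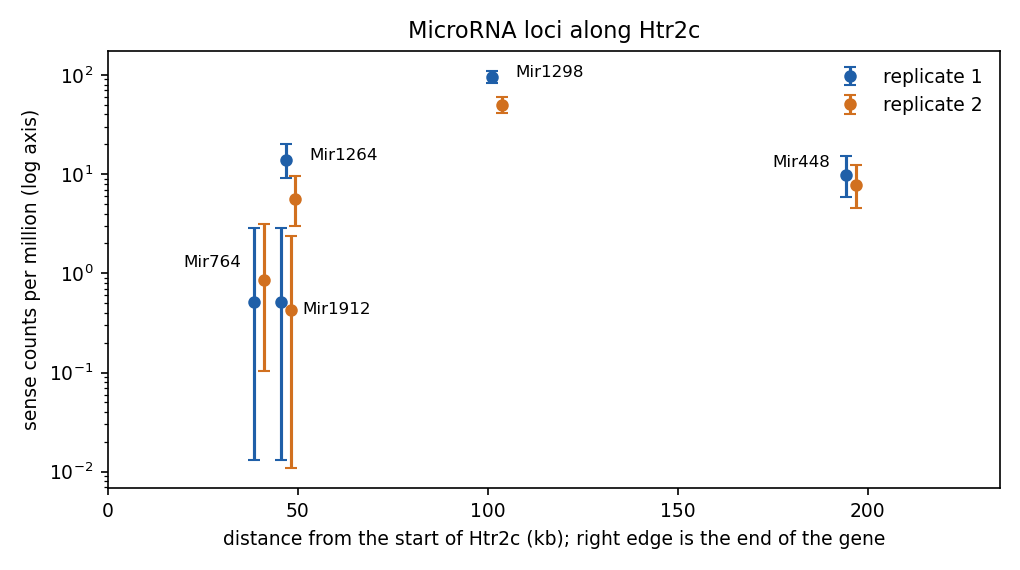
CPM (log axis) of the 5 microRNA loci of Htr2c against their distance from the start of the gene in kb, with points of the libraries set slightly apart and exact 95% binomial intervals as bars. Mir1298, 102.4 kb into the gene, stands at 95.8 and 50.0 CPM, above the other 4 in both libraries.

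The 6 genes with more than 3 counts in each library all had fewer CPM in replicate 2 than in replicate 1, Mir448 by little. Mir184 differed most, at 512 against 107 CPM, which is 4.77-fold (log2 ratio of replicate 2 over replicate 1 -2.26, 95% interval -2.46 to -2.05). The pair Mir204 and Mir211 differed by similar amounts, 1.71-fold (log2 ratio -0.77, -0.88 to -0.66) and 1.86-fold (-0.90, -1.02 to -0.78). Mir204 was 52.8% of the pair's counts in replicate 1 (51.0 to 54.6) and 54.9% in replicate 2 (52.7 to 57.1). These intervals overlap, but both genes were chosen on this contrast, so nothing is read from the similar share.

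Among the Htr2c genes, Mir1298 was 1.92-fold lower in replicate 2 (log2 ratio -0.94, -1.29 to -0.60). Mir1264 had a log2 ratio of -1.31 with a wide interval (-2.39 to -0.31). Mir448 had -0.33, and its interval of -1.35 to 0.67 includes no difference. Mir1912, with 1 count in each library, gives no usable ratio. The 3 less abundant Htr2c genes together had 47 and 32 counts, a log2 ratio of -0.81 (-1.51 to -0.13), against -0.94 for Mir1298 alone.

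These ratios are set beside those of all 363 loci that averaged 10 or more counts over the libraries, called measurable below. Of the 7 genes 6 were measurable, Mir1912 being the exception. All 6 had a ratio below 0, as did 48.8% of all 363 loci. Of the 6, 5 were over 1.5-fold lower in replicate 2, the exception being Mir448, while 4.68% of all 363 loci were (17 loci). The list was chosen on this contrast, so nothing is read from that difference. Over 2-fold lower were Mir184 and Mir1264, beside 1.65% of all loci. With a mean of 100 or more counts, all 4 of the genes that qualified were over 1.5-fold lower, beside 3.5% of such loci. The median log2 ratio was -0.92 over the 6 genes and 0.02 over all loci, of which 90% lay between -0.54 and 0.89. Mir184 had the lowest ratio of all 363 loci, Mir1264 the third lowest, Mir1298 the ninth, Mir211 the tenth and Mir204 the 14th.

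The spread between the pools depended on level. For measurable loci that averaged under 50 counts, where Mir1264 and Mir448 lie, the median absolute log2 ratio was 0.42, and 5% lay below -0.97. For the 257 loci that averaged 100 or more it was 0.14, with 5% below -0.38. Mir184, Mir204, Mir211 and Mir1298 belong to the latter and all lie below that point. In the low range, Mir1264 at -1.31 lies below -0.97, on 27 and 13 counts, whereas Mir448 lies within the spread. The genes were chosen on this ratio, so nothing is read from these places.

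**Figure D3:**
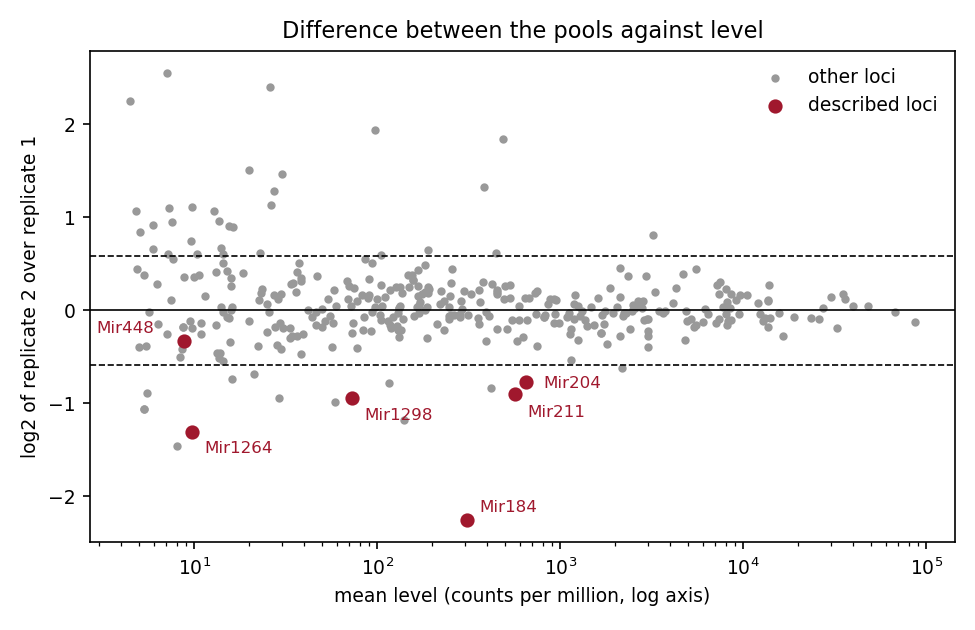
Log2 ratio of replicate 2 over replicate 1 against mean level in CPM (log axis) for the 363 measurable loci; dashed lines mark a 1.5-fold difference. Of the 6 labelled loci, Mir184 at -2.26 is the lowest point, and Mir448 at -0.33 alone lies inside the lines.

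Of the 6 genes, 3 lie on the X chromosome. The other 39 measurable X-linked loci had a median log2 ratio of -0.02 and ranged from -0.46 to 2.40. Mir1298 at -0.94 lies below that range, with its interval, as the choice of the genes favours. The value of Mir1264 also lies below it, but its interval reaches into it, and Mir448 lies within it. The sex ratio of each pool is not given in the sources used here, and its part in these values was not tested.

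Loci with a pool ratio closest to those of the 4 abundant genes were drawn from the 253 others that averaged 100 or more counts. With 2 libraries this likeness is only a similar ratio. For Mir184 the nearest was Mir217, at -1.18, a gap of 1.08, so no such locus was close. The nearest to Mir204 was Mir615 (log2 ratio -0.78), followed by Mir449a (-0.84) and Mir10a (-0.62). The nearest to Mir211 were Mir449a, Mir216b (-0.98) and Mir615. The same 3 loci were nearest to Mir1298, led by Mir216b. Mir449a, known from multiciliated cells, stood at 534 against 299 CPM.

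Marker lists of tissues that express the 7 genes were then examined for other loci. The labels name the facial prominence alone, and neither eye nor choroid plexus tissue. The lens and cornea list holds Mir205 and Mir31 beside Mir184 and Mir204. Mir205, which marks surface epithelium, had 8166 and 7933 CPM (log2 ratio -0.04), and Mir31 had 437 and 347 CPM (-0.33). Both were lower in replicate 2, as were 48.8% of all 363 loci. Neither was over 1.5-fold lower, where 4.68% of all loci were. With only 2 loci and these shares, their direction says little about the list. In the choroid plexus list, Mir764 was the only locus outside the 7, with 1 and 2 counts, and the pigment cell list holds Mir204 and Mir211 alone. The last 2 lists therefore offer no further locus to compare.

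The retina list held loci on both sides. It has 8 loci in the counts, of which 4 were measurable, and 2 of these were lower and 2 higher in replicate 2. Of all 363 loci 48.8% were lower. None of the 4 was past 1.5-fold, where 4.68% of all loci were lower and 8.54% higher, so having none says little. The list summed to 32870 and 34110 CPM, nearly all from Mir183 (log2 ratio -0.08), Mir182 (0.27) and Mir96 (-0.16), which are also known from the inner ear and sensory ganglia. Mir183, Mir182 and Mir96 lie in a single cluster, so they are not separate markers. The loci of this list known from neurons, the Mir9 and Mir124a genes, were low. Other loci of the neural list were not, such as Mir137 at 1384 and 1109 CPM. Mir9-3 had 50 and 67 counts, or 25.8 and 28.9 CPM, Mir124a-3 had no count in either library, Mir124a-1 had 0 and 1, and Mir124a-2 had 9 and 7. These have near-identical copies, so their counts are incomplete.

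Lists of related and neighbouring cell types held loci on both sides, and their part in the result was not tested. Beside their counts, 48.8% of all 363 loci were lower in replicate 2. In the ciliated epithelium list, summed to 2607 and 1929 CPM, 2 of 3 measurable loci were lower in replicate 2, with Mir34c at -0.36 and Mir449a at -0.84, while Mir34b was at 0.22. In the neural list, summed to 3410 and 2836 CPM, 6 of 9 were lower, none by over 1.5-fold, with the most abundant, Mir137 and Mir219a-2, at -0.32 and -0.38. The 3 on the other side were Mir9-3 at 0.17, Mir138-2 at 0.04 and Mir219a-1 at 0.03. In the pancreas list, summed to 1132 and 1018 CPM, Mir217, Mir216b and Mir216a were over 1.5-fold lower in replicate 2, while Mir375, at 833 and 876 CPM, was not. Of all 363 loci 4.68% were past this limit, and these 3 are neighbours on 1 chromosome, so they are not separate markers.

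In the lists of the prominence itself no locus was past 1.5-fold, where 4.68% of all 363 loci were lower and 8.54% higher. With shares this low, having none says little about these lists. All 7 loci of the facial epithelium list were lower in replicate 2, beside 48.8% of all 363 loci (median log2 ratio -0.28, sums 33090 and 29540 CPM). Its Mir200 loci, with Mir141 and Mir429, lie in 2 clusters, so the 7 are not separate markers. Mir429 and Mir205 led this list, at -0.11 and -0.04. In the facial mesenchyme list 5 of 7 were higher (median 0.11, sums 52450 and 55790 CPM), led by Mir214 at 0.14 and Mir143 at 0.11. Both lists summed to far more than the 7 genes in each pool, although single loci such as Mir141, at 683 and 562 CPM, stood at levels like those of Mir204 and Mir211.

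The muscle list went the other way. Of 5 measurable muscle loci, 4 were over 1.5-fold higher in replicate 2, where 8.54% of all loci were. The exception, Mir133b, stood at 15.97 and 15.95 CPM. Mir1a-1 had 0 and 1 counts, and Mir133a-1 and Mir133a-2 had none in either library. These last loci have near-identical copies, so their counts are incomplete. The list summed to 628 and 1494 CPM. Its leading locus Mir208b, of heart muscle, stood at 212 and 758 CPM, and Mir206, of skeletal muscle, at 350 and 537 CPM. In the erythroid list, summed to 280 and 614 CPM, 1 of 3 loci was over 1.5-fold higher in replicate 2. This was Mir451a, at 218 and 547 CPM. Mir144 stood at 46.4 and 45.7 CPM, and Mir486 had a log2 ratio of 0.40 with an interval of -0.27 to 1.10. In pooled bulk tissue, fewer cells of a type and less RNA per cell cannot be told apart.

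**Figure D4:**
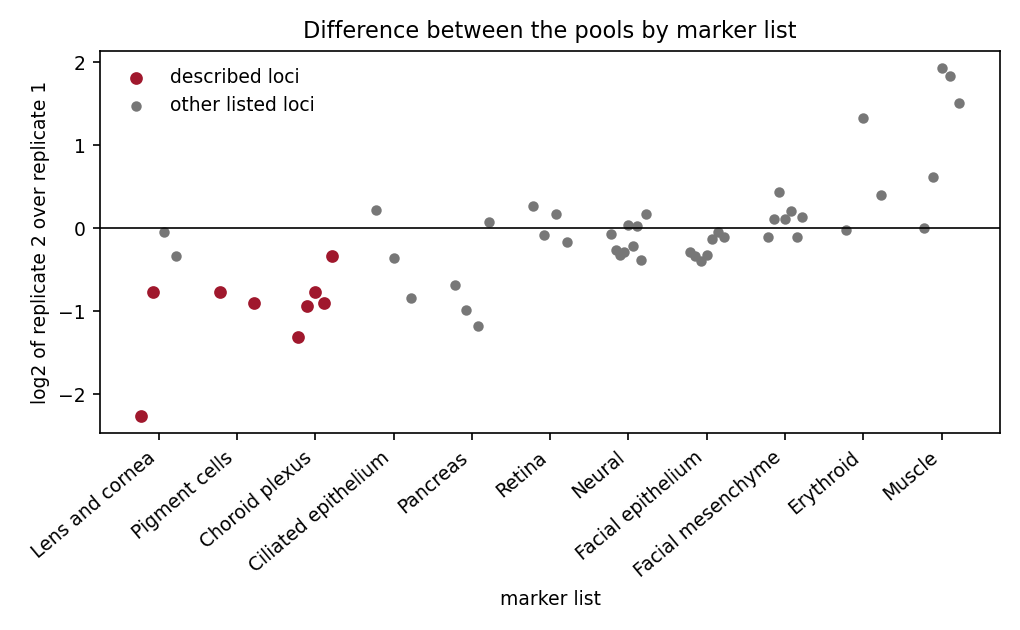
Log2 ratio of replicate 2 over replicate 1 for each measurable locus, by marker list, with the described loci marked; a locus on several lists is drawn in each. The pigment cell and choroid plexus lists show described loci alone, which were chosen on this ratio and lie below 0. In the lens and cornea list the other loci are at -0.04 and -0.33. The retina list lies between -0.16 and 0.27, and the muscle list reaches 1.93.

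Both Trpm1 start sites that RefSeq annotates lie upstream of Mir211, the nearer at 20.3 kb. Pigment cells are known to transcribe Trpm1 under the factor MITF, which binds CACGTG and CATGTG, and the eye and choroid plexus factor OTX2 binds TAATCC. These letters were searched on both strands in windows from 250 bases before to 50 bases after each start of the 3 hosts. The window of the nearer Trpm1 start (GRCm38.p6, chr7:64185209-64185508, plus strand) is shown with matches in capitals, since it is the only one of the 5 windows with CACGTG.
Trpm1 nearer start: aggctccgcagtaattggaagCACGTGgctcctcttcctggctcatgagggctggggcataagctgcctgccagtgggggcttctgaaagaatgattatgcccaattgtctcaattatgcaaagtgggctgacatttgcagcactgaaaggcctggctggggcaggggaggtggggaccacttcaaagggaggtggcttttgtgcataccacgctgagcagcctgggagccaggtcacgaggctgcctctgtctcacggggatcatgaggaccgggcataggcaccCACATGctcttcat
CACGTG begins at base -229 from the start, and CATGTG is read on the opposite strand at base 37, where the window shows CACATG. The window of the farther Trpm1 start holds CATGTG at base -141 and TAATCC on the opposite strand at base -34. None of the 3 motifs was in the 2 Trpm3 windows or the Htr2c window. Of 32851 windows of this length in the table, 7.15% held CACGTG, 14.2% CATGTG and 7.06% TAATCC. Host transcripts were not measured in these small-RNA libraries.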

How the data were processed

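For each of the 2 libraries the authors deposited a table of raw counts, 1 line for each microRNA gene, on mm10 with the GENCODE M4 annotation per the text file that accompanies each table. The aligner and counting program are not given in the sources used here. Of the 3 count columns, the sense column was used. It held 97.0% and 96.8% of the stranded counts, and the 7 genes had 0 counts on the opposite strand. Lines for reads without a gene did not enter the library totals. In replicate 1, 30.9% of 4755968 reads were unmapped, 22.7% were placed at several positions and 5.51% fell in no gene. In replicate 2 these were 38.6%, 20.5% and 6.75% of 6781929 reads.

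Symbols came from GENCODE M21 (GRCm38), where 1894 of 1973 identifiers matched with versions ignored. Both libraries belong to 1 group, so no test between conditions exists. A chi-square comparison of their counts (14804 on 406 degrees of freedom) showed more than sampling noise between them. The 7 genes, the marker lists (lens and cornea, retina, pigment cells, choroid plexus, ciliated epithelium, neural, pancreas, facial epithelium, facial mesenchyme, muscle, erythroid) and the motifs were chosen with earlier results of these data known. Besides the 7 genes and Mir764, the loci named were to be the 2 most abundant of each list and the 3 closest in pool ratio to each gene with a mean count of at least 100. Others were named after their values were seen. Ratio steps were tested on simulated counts. Values and intervals were computed in Python 3.11.15 with scipy 1.17.1, numpy 2.4.6 and pandas 2.3.3, and plotted with matplotlib 3.10.9. R 4.3.3 gave alternative scaling, from DESeq2 1.42.0 size factors and from TMM in edgeR 4.0.16.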

Additional observations from a re-analysis of the deposited data

How the results depend on the processing

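The summed log2 ratio of the 7 genes was -1.06 (95% interval -1.14 to -0.99). It was -1.32 when libraries were scaled to all their reads, which moves every ratio by -0.26. Single-gene ratios were also taken under other settings (TMM, DESeq2 factors, all reads, both strands, 0.5 counts added). Of these 35 ratios, 32 stayed within the counting interval and 3 moved further down with all reads. Like all reads, 3 settings move every ratio of the 7 genes by the same amount. This was -0.02 for TMM, 0.00 for DESeq2 factors and -0.00 for both strands. All 7 ratios were below 0, so these shifts could not change a direction, and the count of 32 is no test of the ratios. Adding 0.5 counts changed no direction either. The number of the 7 genes over 1.5-fold lower was 5, and 2 with a 2-fold limit. It was 5 with TMM, DESeq2 factors, both strands or a minimum mean count of 1, and 4 with a minimum of 100. For all loci, 17 were over 1.5-fold lower and 31 higher. With a 2-fold limit these were 6 and 14, with a minimum of 1 count 65 and 101, and with a minimum of 100 counts 9 and 7. The summed level of 0.162% was 0.0628% of all reads, and between 0.105% and 0.219% with either replicate left out. Leaving out a replicate gives no ratio. No paired analysis was possible because the study has 1 group. Depth limits Mir448, Mir1264 and Mir1912, whose ratios rest on 40 counts or fewer.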

Other observations

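The 5 of the 7 genes that were over 1.5-fold lower in replicate 2 were not alone. Of the 17 loci over 1.5-fold lower in replicate 2, 12 were other loci, of which 5 had a mean count of at least 100. Of the 12, 3 were the neighbours Mir216a, Mir216b and Mir217 on chromosome 11. Mir217 had 377 and 199 counts, Mir216b 152 and 92, and Mir216a 51 and 38. Also among the 12 were Mir10a, of the Hoxb cluster, at 2623 and 1706 CPM, and Mir615, of the Hoxc cluster, at 146 and 84.9 CPM. Mir383, named after its values were seen, had 39 and 28 counts and a log2 ratio of -0.73.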
